A study of Mus musculus with 19 samples.

Results

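The 45 genes described here encode the secreted Wnt ligands, the Frizzled receptors that bind them and the family of secreted inhibitors of the pathway. The R-spondins, which raise receptor levels, and a pair of target genes of the pathway complete the 45. They were taken by symbol from the 22180 genes with a probe set carrying 1 gene symbol: 19 Wnt genes, 10 Fzd genes, 10 inhibitor genes (Dkk1 to Dkk4, Frzb, Sfrp1, Sfrp2, Sfrp4, Sfrp5 and Wif1), 4 Rspo genes, Axin2 and Lgr5. The study measured RNA on Affymetrix mouse arrays in 7 tumors of aP2-Cre/+;DicerFlox/- mice, given as angiosarcomas, which are malignant tumors with endothelial features. The other arrays held wild type tissue: 4 aortas, 4 sternocleidomastoid muscles of the neck and 4 quadriceps femoris muscles of the thigh. All groups had a mixed C57Bl/6 and 129X1/SvJ background, and no ages are given in the labels. The tumor mice carry 1 floxed Dicer allele, which Cre can delete, and 1 Dicer allele already lost. Cre was driven by the aP2 (Fabp4) promoter, which is active in adipocytes and in other cells, so Dicer is not removed from endothelium alone. Tumor and genotype cannot be told apart, because the normal tissues came from wild type mice, and the labels do not say whether each array came from a separate animal. The p-values therefore measure the spread between these arrays. All values are log2 intensities, so a difference of 1 is a 2-fold difference, and levels are not compared between genes because each probe set has its own response.

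The tissues were checked against marker lists. The mean of 16 endothelial markers was 9.87 to 10.6 over the tumors, against 8.50 to 8.61 over the aortas and 7.84 to 8.21 over the muscles. The skeletal muscle list (10 genes) ranged from 5.08 in tumor 5 to 10.1 in tumor 2, against 5.30 to 7.57 in aortas and 11.2 to 11.8 in the muscles. The aorta samples also carried heart muscle markers (8 genes, 9.60 to 10.3, against 5.66 to 6.16 in tumors), brown adipocyte markers (7 genes, 10.2 to 10.7) and mesothelial markers (6 genes, 5.90 to 6.6, against 4.86 to 5.42 in tumors). Brown adipocyte markers ranged from 5.04 to 8.47 in tumors, 8.81 to 9.78 in sternocleidomastoid and 6.94 to 8.28 in quadriceps. In quadriceps, Cox8b (12.1) and Cox7a1 (11.6) lifted the list mean. Ucp1 averaged 5.88 there, against 6.42 in tumors, 11.2 in sternocleidomastoid and 12.8 in aortas. Zic1 of this list was lower in aortas (5.22) than in tumors (5.76). Dicer1 averaged 8.53 ± 0.26 in tumors (SD, n = 7), against 8.23 ± 0.16 in aortas, 8.42 ± 0.10 in sternocleidomastoid and 8.76 ± 0.14 in quadriceps (SD, n = 4 each); whether its probes lie in the deleted part is not given in the sources used here. In bulk tissue, fewer cells of a type and less RNA per cell cannot be told apart, and this applies to every difference below.

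Wnt proteins are lipid-modified ligands that travel short distances. When a Wnt engages a Frizzled receptor together with Lrp5 or Lrp6, the destruction complex that degrades beta-catenin is held in check, and beta-catenin enters the nucleus and acts with Tcf/Lef factors on genes such as Axin2 and Lgr5. Other Wnt proteins act through Ror, Ryk or planar polarity components without beta-catenin. Sfrp proteins and Wif1 bind the ligand and most Dickkopf proteins block the co-receptor, while R-spondins bind Lgr4, Lgr5 or Lgr6 and take the ubiquitin ligases Znrf3 and Rnf43 off the Frizzled receptors. In endothelium the pathway is best known for building the blood-brain barrier and retinal vessels, where Fzd4 is the receptor, and in skeletal muscle for the regulation of satellite cells.

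The promoters of 5 genes are shown: the 4 whose difference between tumor and muscle passed every alternative setting tried (Wnt4, Fzd7, Frzb and Sfrp2), and Axin2, a direct target that feeds back on the pathway. Those settings included a minimum of 2-fold, and Wnt5b, Wnt11, Fzd9 and Sfrp5 were lost in that setting alone. Each is 300 bases long, from 250 before to 50 after the start of the gene, read 5′ to 3′ along the gene's own strand, from RefSeq with the coordinates of the GRCm38.p6 assembly. Capitals mark matches to the E-box letters CANNTG, to which MyoD-type muscle factors bind, and to CTTTGA or CTTTGT, the core of Tcf/Lef sites, on either strand. CANNTG reads the same on both strands, and the Tcf/Lef cores share their first 5 letters.

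Wnt4, chr4:137277385-137277684, plus strand: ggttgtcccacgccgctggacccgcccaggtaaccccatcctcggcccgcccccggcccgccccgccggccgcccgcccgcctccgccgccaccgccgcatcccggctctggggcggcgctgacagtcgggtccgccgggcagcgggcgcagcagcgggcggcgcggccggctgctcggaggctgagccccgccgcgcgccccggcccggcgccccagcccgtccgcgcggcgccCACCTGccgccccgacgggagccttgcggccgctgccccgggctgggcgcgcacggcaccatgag
Fzd7, chr1:59481897-59482196, plus strand: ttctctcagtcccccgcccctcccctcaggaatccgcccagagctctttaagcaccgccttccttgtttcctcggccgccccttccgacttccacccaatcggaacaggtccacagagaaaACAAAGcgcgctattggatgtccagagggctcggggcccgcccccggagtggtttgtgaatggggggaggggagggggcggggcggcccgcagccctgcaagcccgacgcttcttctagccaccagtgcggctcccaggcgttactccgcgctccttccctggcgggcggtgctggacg
Frzb, chr2:80447347-80447646, minus strand: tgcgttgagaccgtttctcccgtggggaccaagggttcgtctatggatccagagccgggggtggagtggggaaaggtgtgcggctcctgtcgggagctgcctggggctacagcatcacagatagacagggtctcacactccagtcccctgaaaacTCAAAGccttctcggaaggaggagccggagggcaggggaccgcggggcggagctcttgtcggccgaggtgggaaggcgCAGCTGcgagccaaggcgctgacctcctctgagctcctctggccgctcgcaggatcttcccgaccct
Sfrp2, chr3:83766071-83766370, plus strand: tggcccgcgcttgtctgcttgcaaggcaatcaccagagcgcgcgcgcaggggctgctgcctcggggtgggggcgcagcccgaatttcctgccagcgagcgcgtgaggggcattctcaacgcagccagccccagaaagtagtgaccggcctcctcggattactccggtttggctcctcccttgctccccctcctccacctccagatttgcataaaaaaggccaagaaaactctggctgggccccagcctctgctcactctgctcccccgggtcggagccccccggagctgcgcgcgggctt
Axin2, chr11:108920099-108920398, plus strand: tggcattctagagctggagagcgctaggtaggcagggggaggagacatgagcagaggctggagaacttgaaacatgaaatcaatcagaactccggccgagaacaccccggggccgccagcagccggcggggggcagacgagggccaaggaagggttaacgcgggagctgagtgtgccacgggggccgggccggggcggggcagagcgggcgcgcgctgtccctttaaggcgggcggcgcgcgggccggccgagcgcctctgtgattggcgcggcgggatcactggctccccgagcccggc

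The Wnt4 window held CACCTG, starting 15 bases before the start of the gene. The Fzd7 window held ACAAAG, which is CTTTGT on the opposite strand, 129 bases before the start. The Frzb window held TCAAAG, which is CTTTGA on the opposite strand, 95 bases before the start, and CAGCTG 17 bases before it. The Sfrp2 and Axin2 windows held none of these letters. Of all 32851 promoter windows of that length, 72.3% held CANNTG and 31.2% held CTTTGA or CTTTGT, while of the 33 windows found for 30 of the 45 genes these shares were 66.7% and 27.3%. A match is only a match of letters.

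The intensities of the 45 genes were set against the array medians over all 41345 probe sets, which mark no level of detection. A group mean above the highest array median (5.48) was seen in all 4 groups for 24 genes, in some groups for 9 and in 0 groups for 12, or 26.7% of the 45, against 36.8% of all genes. Some of the 24 stood little above it, such as Wnt1 (group means 5.51 to 5.67) and Wnt7a (5.62 to 5.83). The 12 dim genes were Wnt3, Wnt3a, Wnt8a, Wnt8b, Wnt10b, Wnt16, Fzd3, Fzd10, Dkk1, Dkk4, Rspo2 and Lgr5. Differences among them are read at the low end of the scale. The 9 genes include Frzb, Fzd2, Wif1 and Rspo4, whose tumor means (4.51, 5.20, 5.35 and 5.32) were below that median. Their differences are thus read partly at the low end as well.

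Between tumor and aorta, few of these genes passed the threshold. Lgr5 rose and Dkk3, Wnt2b, Axin2 and Fzd2 fell in tumors, while 40 of the 45 did not pass the adjusted p of 0.05 in limma. The other probe sets of Axin2 (-0.06, adjusted p = 0.641) and Lgr5 (0.10, adjusted p = 0.363) did not pass. The sign of the Lgr5 difference turned when each array was centred on the mean of 9 housekeeping genes. That setting moved the median of all genes by -0.57, to -0.59. The calls made up 11.1% of the 45 genes, 2.22% higher and 8.89% lower, whereas 36.2% of all genes tested were called, 18.6% higher and 17.5% lower. The median difference of the 45 genes was -0.12, against -0.02 for all genes.

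Between tumor and muscle, 19 of the 45 genes passed, or 42.2%, against 51% of all genes tested. The Frizzled receptor Fzd7, the inhibitors Frzb and Sfrp5, the ligand Wnt4 and 8 others were lower in tumors, among them Axin2, whose other probe set was higher. Sfrp2, Fzd6, Sfrp1, Fzd1, Lgr5, Fzd3 and Wnt2 were higher as deposited, and Sfrp1, Fzd1, Lgr5, Fzd3 and Wnt2 turned sign with housekeeping centring, which moved the median of all genes by -0.81, to -0.85. Calls reached 15.6% of the 45 genes in the higher and 26.7% in the lower direction, against 25.3% and 25.7% of all genes tested, so the lower share was close to the share of all genes. The median difference of the 45 genes was -0.11, against -0.04 for all genes. Tumors and muscles did not overlap for 5 of the 45 genes in the lower direction (12.7% of all genes) and for 0 in the higher direction (14.6% of all genes).

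**Figure D1:**
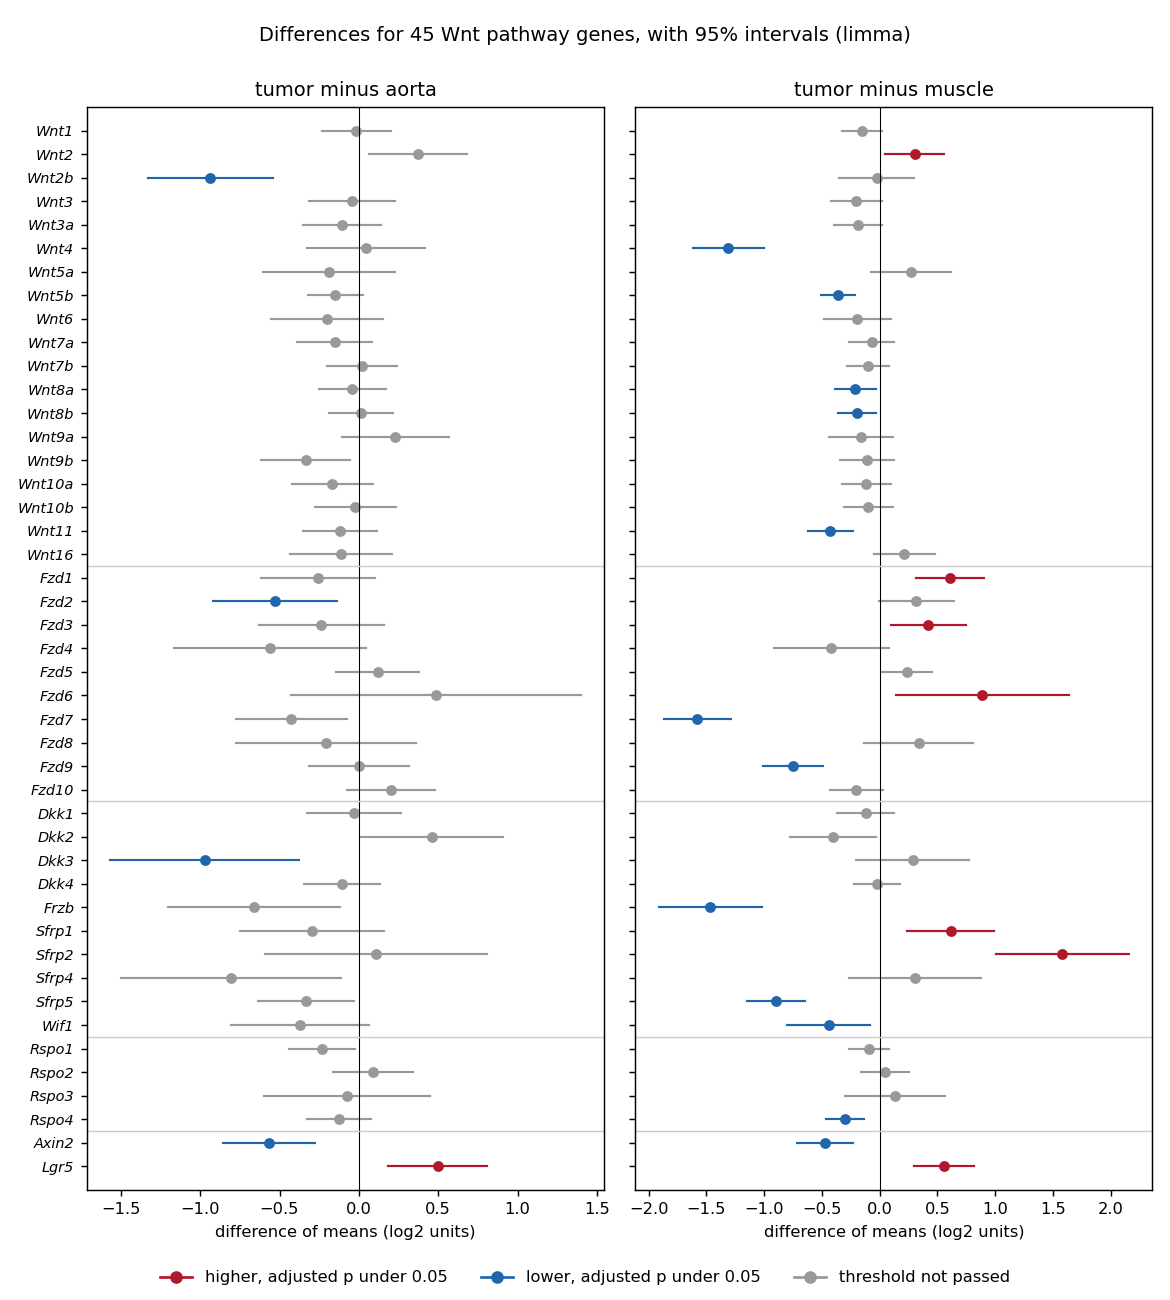
Differences in log2 intensity for the 45 genes, tumor minus aorta in 1 panel and tumor minus muscle in the other, with genes in rows and the 95% interval of limma as bars. The differences from muscle run from -1.58 for Fzd7 to 1.58 for Sfrp2, and those from aorta from -0.97 for Dkk3 to 0.50 for Lgr5, the last of which turned sign with housekeeping centring.

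Among the 19 ligands, Wnt4 showed the widest gap. Wnt4, a ligand needed for kidney and female reproductive tract development, had 5.50, 5.99 and 6.39 as the lowest, median and highest tumor values. It had 7.68, 7.24, 7.17 and 7.03 in the 4 sternocleidomastoid and 7.27, 7.47, 7.51 and 6.88 in the 4 quadriceps arrays. Every tumor lay below every muscle array. The difference was -1.31 ± 0.15 (SE), a 2.48-fold lower level, with an adjusted p of 2.67e-07 in limma. The aortas had 5.98, 5.58, 6.20 and 5.93, within the range of the tumors, and tumor minus aorta was 0.05 ± 0.18 (SE; adjusted p = 0.877), a difference that turned sign with housekeeping centring.

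Wnt5b, Wnt8a, Wnt8b and Wnt11 were also lower in tumors than in muscle, by 0.36, 0.21, 0.20 and 0.43. Wnt5b and Wnt11 are ligands known for beta-catenin-independent signalling. The Wnt5b tumors (5.39 to 5.64) did not overlap the muscles (5.74 to 6.03). Wnt8a and Wnt8b were dim in all groups, and each of these 2 calls was lost in 8 or more of the alternative settings. Wnt2, a beta-catenin-type ligand of lung and vessels, had a difference of 0.30 ± 0.12 (SE; adjusted p = 0.0435), a call that was lost in 8 of 15 alternative settings and whose sign turned with housekeeping centring.

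Wnt2b, a ligand of eye and lung development, had its highest group mean in the aortas. Its lowest, median and highest tumor values were 5.32, 5.82 and 6.52, against 6.92, 6.48, 7.19 and 6.66 in aortas. Tumor 7 alone exceeded an aorta value, that of aorta 2. The difference of -0.94 ± 0.19 (SE) had an adjusted p of 0.000556 in limma. Muscles, at 6.08, 5.77, 5.95 and 5.56 in sternocleidomastoid and 5.96, 5.89, 6.01 and 6.00 in quadriceps, lay within the range of the tumors. The aorta samples also carried heart muscle, brown adipocyte and mesothelial markers, whose part in the Wnt2b result was not tested.

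The other ligands passed in neither tumor contrast. Wnt5a, the main beta-catenin-independent ligand, ranged from 5.33 to 6.58 in tumors, against 5.62 to 6.35 in aortas and 5.23 to 5.72 in the muscles. The unadjusted p was under 0.05 for 15.8% of the 19 ligands against aorta and for 31.6% against muscle, shares below the 43.4% and 55.8% of all genes.

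Of the 10 Frizzled receptors, Fzd7 fell furthest against muscle. Fzd7, a receptor through which Wnt7a acts on mouse satellite cells, had 5.87, 6.43 and 7.17 as lowest, median and highest tumor values. It had 7.99, 8.16, 8.05 and 8.05 in sternocleidomastoid and 8.31, 8.21, 8.17 and 7.94 in quadriceps. Every tumor was below every muscle array. The difference of -1.58 ± 0.14 (SE) is a 2.99-fold lower level, with an adjusted p of 1.02e-08. Aortas had 6.90, 7.12, 7.09 and 6.72, and tumor minus aorta was -0.42 ± 0.17 (SE; adjusted p = 0.0562), which did not pass. Satellite cell markers (6 genes) were 5.44 to 5.91 on average in tumors, against 6.38 to 6.62 in the muscles. The tumor with the highest Fzd7, tumor 2, also had the highest skeletal muscle list (10.1) and satellite cell list (5.91); their part in the result was not tested.

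Fzd9, which is expressed at the neuromuscular junction, was lower in tumors as well. Its lowest, median and highest tumor values were 5.82, 6.27 and 6.92, against 7.03, 6.99, 7.20 and 7.09 in sternocleidomastoid and 7.27, 7.11, 7.21 and 6.82 in quadriceps. Only tumor 2 reached the level of a muscle array. The difference was -0.75 ± 0.12 (SE; adjusted p = 3.96e-05), and aortas (6.07 to 6.54) lay within the tumor range.

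Fzd1 was higher in tumors than in muscle by 0.61 ± 0.14 (SE; adjusted p = 0.00113), as was Fzd3 by 0.42 ± 0.15 (SE; adjusted p = 0.0294), though both turned sign with housekeeping centring. Fzd1 ranged from 6.55 to 7.84 in tumors, against 7.53 to 7.83 in aortas and 6.67 to 6.99 in the muscles. Tumor 3 was below every muscle array for Fzd1, and the 6 others were above all of them. The Fzd3 probe set was dim in all groups.

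Fzd6, a receptor of planar polarity in skin and hair follicles, had the widest spread among tumors. Tumors 1, 4, 5 and 6 had 8.08, 8.39, 8.0 and 8.63, whereas tumors 2, 3 and 7 had 6.72, 5.42 and 6.48. The aortas lay between, at 6.74, 7.01, 6.90 and 6.96, and the muscles had 6.78, 6.48, 6.57 and 6.32 in sternocleidomastoid and 6.45, 6.58, 6.6 and 6.21 in quadriceps. The difference from muscle, 0.89 ± 0.36 (SE), had an adjusted p of 0.0457, and the call was lost when any of 16 of the 19 arrays was left out. Tumors 2 and 7 lay within the muscle range and tumor 3 below it.

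Fzd2 fell against aorta by 0.53 ± 0.19 (SE; adjusted p = 0.0327). It had 4.80, 4.94 and 5.95 as lowest, median and highest tumor values, against 5.78, 5.92, 5.56 and 5.64 in aortas. Tumors 7 and 2, at 5.95 and 5.62, reached the aorta range. The call was lost when any of 7 of the 19 arrays was left out. Fzd4, Fzd5, Fzd8 and Fzd10 passed in neither tumor contrast, and Fzd4, the receptor of retinal endothelium, had a tumor mean of 9.65 ± 0.78 (SD, n = 7), against 10.2 ± 0.14 in aortas (SD, n = 4).

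**Figure D2:**
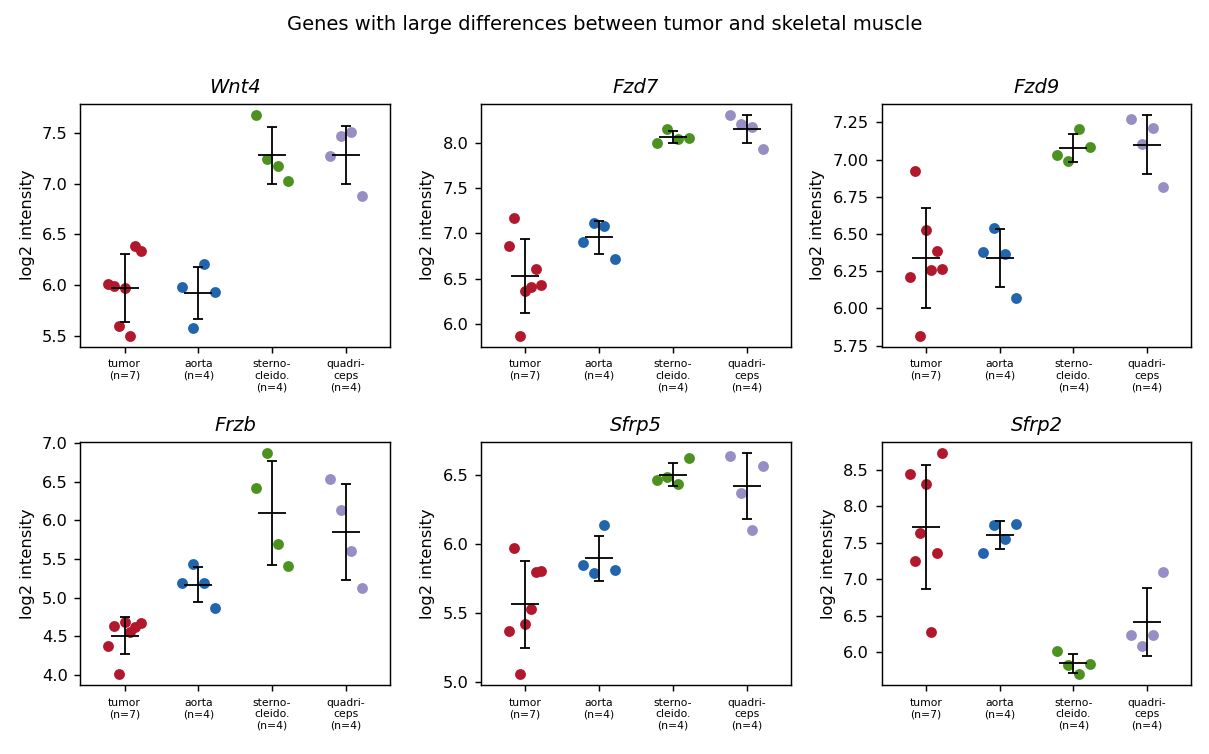
Log2 intensity in each array for Wnt4, Fzd7, Fzd9, Frzb, Sfrp5 and Sfrp2 in tumors (n = 7), aortas, sternocleidomastoid and quadriceps (n = 4 each), with the group mean and SD as bars. Every tumor lies below every muscle array for Wnt4, Fzd7, Frzb and Sfrp5.

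The secreted inhibitors moved in both directions against muscle. Frzb, which binds Wnt proteins through a Frizzled-like domain and is known in cartilage, had 4.01, 4.61 and 4.69 as lowest, median and highest tumor values. It had 6.42, 6.87, 5.69 and 5.40 in sternocleidomastoid and 6.53, 6.14, 5.61 and 5.12 in quadriceps. Tumors were below every muscle and every aorta (5.19, 5.43, 5.19 and 4.87). The difference from muscle was -1.47 ± 0.21 (SE), 2.76-fold lower, with an adjusted p of 7.94e-06. Against aorta the difference of -0.66 ± 0.26 (SE) missed the threshold at an adjusted p of 0.0522, and 11.5% of all genes were lower in all tumors than in all aortas. The tendon and cartilage list (8 genes) ranged from 5.57 to 6.77 in tumors, against 6.17 to 6.76 in sternocleidomastoid and 6.22 to 7.78 in quadriceps; its part in the result was not tested.

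Sfrp5, an inhibitor secreted by adipose tissue that acts on Wnt5a, was also lower in tumors than in muscle. It had 5.06, 5.53 and 5.98 as lowest, median and highest tumor values, against 6.47, 6.49, 6.44 and 6.62 in sternocleidomastoid and 6.64, 6.37, 6.11 and 6.57 in quadriceps. The groups did not overlap. The difference was -0.90 ± 0.12 (SE; adjusted p = 2.88e-06). Wif1, which binds Wnt ligands directly, differed by -0.44 ± 0.17 (SE; adjusted p = 0.0371). That call rested on quadriceps: tumor minus quadriceps was -0.87 (adjusted p = 0.00164), whereas tumor minus sternocleidomastoid was -0.01 (adjusted p = 0.972).

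Sfrp2, a Frizzled-related protein made by stromal cells, was the gene with the largest increase over muscle. It had 6.28, 7.63 and 8.72 as lowest, median and highest tumor values, against 6.02, 5.83, 5.70 and 5.85 in sternocleidomastoid and 6.23, 6.08, 6.24 and 7.10 in quadriceps. Only tumor 5 lay within the muscle range. The difference was 1.58 ± 0.27 (SE), 2.99-fold higher, with an adjusted p of 6.6e-05. A second, dimmer probe set of Sfrp2 differed by 0.22 ± 0.12 (SE; adjusted p = 0.12), and did not pass. Against aorta (7.36, 7.75, 7.55 and 7.76) the difference was 0.11 ± 0.33 (SE; adjusted p = 0.846), and its sign turned with housekeeping centring. The fibroblast marker list (13 genes) was 9.19 to 10.6 on average in tumors, against 9.04 to 9.40 in aortas and 8.20 to 8.90 in the muscles; its part in the result was not tested.

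Sfrp1, another Frizzled-related protein, had 6.01, 6.82 and 7.68 as lowest, median and highest tumor values, against 5.98, 6.25, 6.41 and 6.16 in sternocleidomastoid and 6.16, 6.36, 6.40 and 6.25 in quadriceps. Tumor 5 was within the muscle range and the others above it. The difference from muscle was 0.62 ± 0.18 (SE; adjusted p = 0.00701), and its sign turned with housekeeping centring. The Sfrp1 call was lost when tumors 5 to 7 were used alone.

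Dkk3, a Dickkopf member that does not block Lrp6 in the manner of Dkk1, was lower in tumors than in aortas. It had 6.71, 7.14 and 8.13 as lowest, median and highest tumor values, against 7.89, 8.42, 8.09 and 8.40 in aortas. Tumor 7 alone lay within the aorta range. The difference of -0.97 ± 0.28 (SE) had an adjusted p of 0.0106, and the call was lost with tumors 5 to 7 alone. The smooth muscle list (10 genes) was 8.34 to 9.35 in tumors, against 9.86 to 10.3 in aortas; its part in the result was not tested. Dkk1, Dkk2, Dkk4 and Sfrp4 passed in neither tumor contrast. Sfrp4 had a tumor mean of 6.05 ± 0.82 (SD, n = 7), against 6.85 ± 0.11 in aortas (SD, n = 4; adjusted p = 0.0651).

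Of the R-spondins, Rspo4 alone passed in a tumor contrast. Rspo4 was lower in tumors than in muscle by 0.30 ± 0.08 (SE; adjusted p = 0.00334), with lowest, median and highest tumor values of 5.02, 5.35 and 5.55, against 5.47, 5.55, 5.60 and 5.38 in sternocleidomastoid and 5.60, 5.78, 5.86 and 5.70 in quadriceps. Tumors lay below all quadriceps arrays and overlapped sternocleidomastoid, and the call was lost against sternocleidomastoid alone. Rspo1 had 6.10, 6.26 and 6.35 as lowest, median and highest tumor values, against 6.80, 6.21, 6.49 and 6.38 in aortas, 6.42, 6.28, 6.36 and 6.03 in sternocleidomastoid, and 6.35, 6.34, 6.43 and 6.47 in quadriceps, and passed in no contrast. Rspo2 had 4.93, 5.18 and 5.48 in tumors, against 5.08, 4.74, 5.22 and 5.47 in aortas, 5.18, 5.13, 5.09 and 5.02 in sternocleidomastoid, and 5.18, 5.11, 5.41 and 5.25 in quadriceps, and was dim in all groups. Both overlapped every normal tissue. Rspo3, which acts on endothelial cells in mice, had 5.09, 5.49 and 7.01 in tumors, against 5.59, 5.94, 5.57 and 5.94 in aortas, 5.61, 5.84, 5.84 and 5.54 in sternocleidomastoid, and 5.45, 5.41, 5.40 and 5.34 in quadriceps. Tumor 5 set the Rspo3 maximum, and the next tumor stood at 6.02.

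Axin2, a scaffold of the destruction complex and a feedback target, gave different answers from its 2 probe sets. The one with the higher mean over all arrays, called the brighter one here, was the dimmer of the pair in tumors (mean 5.77). It had 5.31, 5.75 and 6.32 as lowest, median and highest tumor values. It had 6.17, 6.19, 6.50 and 6.48 in aortas, 6.35, 6.42, 6.31 and 6.18 in sternocleidomastoid, and 6.35, 6.14, 6.14 and 6.07 in quadriceps. Tumor 5 alone reached the range of the normal tissues. The differences were -0.56 ± 0.14 from aorta (SE; adjusted p = 0.00301) and -0.47 ± 0.11 from muscle (SE; adjusted p = 0.00164), and both were lost with tumors 5 to 7 alone. The other Axin2 probe set averaged 6.00 in tumors, against 6.06 in aortas, 5.70 in sternocleidomastoid and 5.78 in quadriceps. It differed by -0.06 from aorta (adjusted p = 0.641) and by 0.26 from muscle (adjusted p = 0.00739), so its direction against muscle was opposite to that of the brighter probe set. No direction for Axin2 against muscle can be read from these arrays, and the lower level against aorta rests on 1 of the 2 probe sets.

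Lgr5, an R-spondin receptor and intestinal stem cell marker that is itself a target, had 4.85, 5.26 and 5.77 as lowest, median and highest tumor values, against 5.0, 4.77, 4.98 and 4.50 in aortas. It had 4.59, 4.92, 4.91 and 4.58 in sternocleidomastoid and 4.80, 4.72, 4.87 and 4.66 in quadriceps. Tumor 5 alone overlapped the normal tissues. The differences of 0.50 ± 0.15 from aorta (SE; adjusted p = 0.0126) and 0.55 ± 0.12 from muscle (SE; adjusted p = 0.00076) turned sign with housekeeping centring, and the first was lost without aorta 4. The other, dimmer Lgr5 probe set differed by 0.10 and 0.02 and passed in neither (adjusted p = 0.363 and 0.791), and Lgr5 was dim in all groups.

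**Figure D3:**
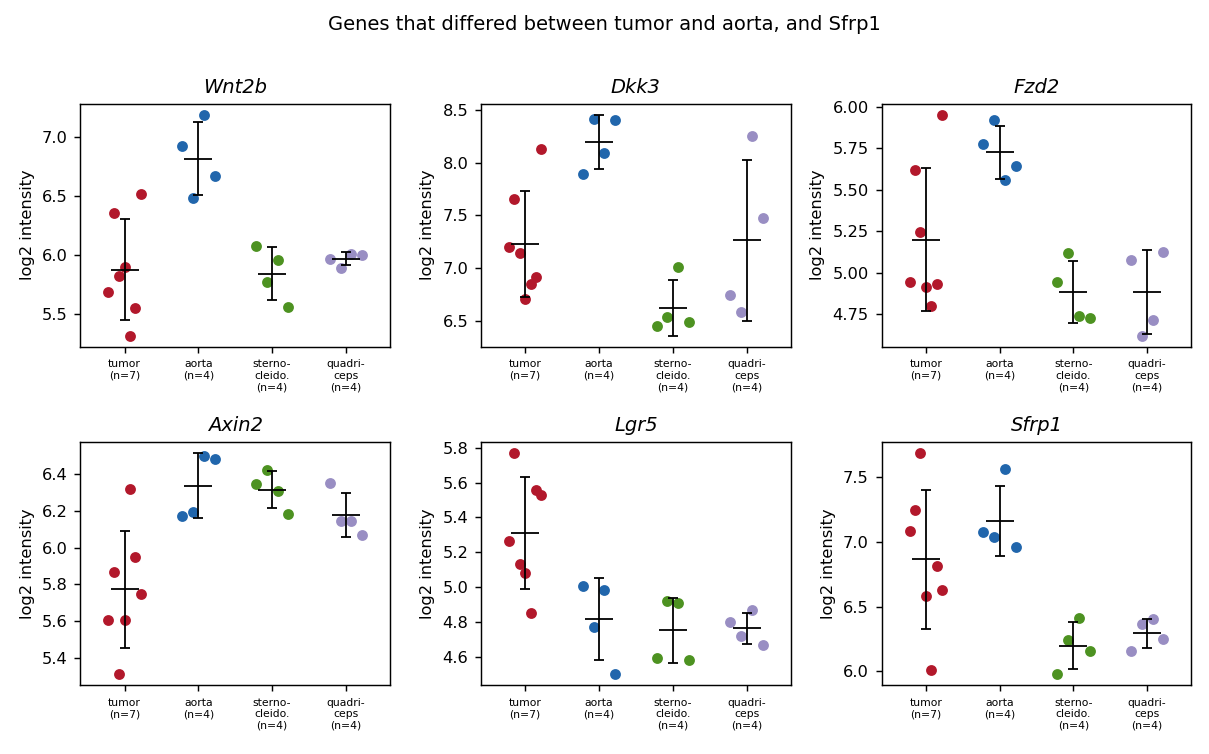
Log2 intensity in each array for Wnt2b, Dkk3, Fzd2, Axin2 (brighter probe set), Lgr5 and Sfrp1 in tumors (n = 7), aortas, sternocleidomastoid and quadriceps (n = 4 each), with the group mean and SD as bars. Aortas stand above most tumors for Wnt2b, Dkk3 and Fzd2, and tumors stand above the muscles for Lgr5 and Sfrp1 as deposited, an order of means that turned for both with housekeeping centring.

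The 45 genes varied more among tumors than among the arrays of any normal tissue. Their median SD was 0.32 among tumors, 0.19 among aortas, 0.16 among sternocleidomastoid and 0.16 among quadriceps arrays; over all genes it was 0.21, 0.16, 0.16 and 0.14. The following orders of tumors were chosen after their values were seen and carry no test. Tumors 1, 4 and 7 were the 3 highest for Sfrp2 (8.44, 8.30 and 8.72), for Sfrp4 (6.52, 6.77 and 7.04), for Dkk2 (6.28, 6.47 and 6.51) and for Wnt16 (5.30, 5.41 and 5.76). Each of these except Wnt16 encodes a secreted inhibitor. Tumors 2 and 7 were the 2 highest for Wnt2b (6.35 and 6.52), Wnt5a (6.24 and 6.58), Fzd2 (5.62 and 5.95) and Dkk3 (7.65 and 8.13), which include the 2 genes with the largest deficit against aorta.

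Tumors 5 and 6 were the 2 highest for the receptors Fzd3 (5.80 and 5.60), Fzd4 (10.5 and 10.4) and Fzd8 (7.13 and 7.49). They were also the 2 highest for the brighter probe set of Axin2 (6.32 and 5.95). Tumor 7 had the lowest Fzd4, at 8.20, against 9.29 or more in each other tumor. The same libraries differed in other content. The general adipocyte list (7 genes) was highest in tumors 5 and 6, at 11.4 and 10.9, against 6.66 to 9.70 in the other tumors. The skeletal muscle list was lowest in tumors 5 and 6, at 5.08 and 5.40, and the fibroblast list was highest in tumor 7, at 10.6. The part of these contents in the orders was not tested.

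**Figure D4:**
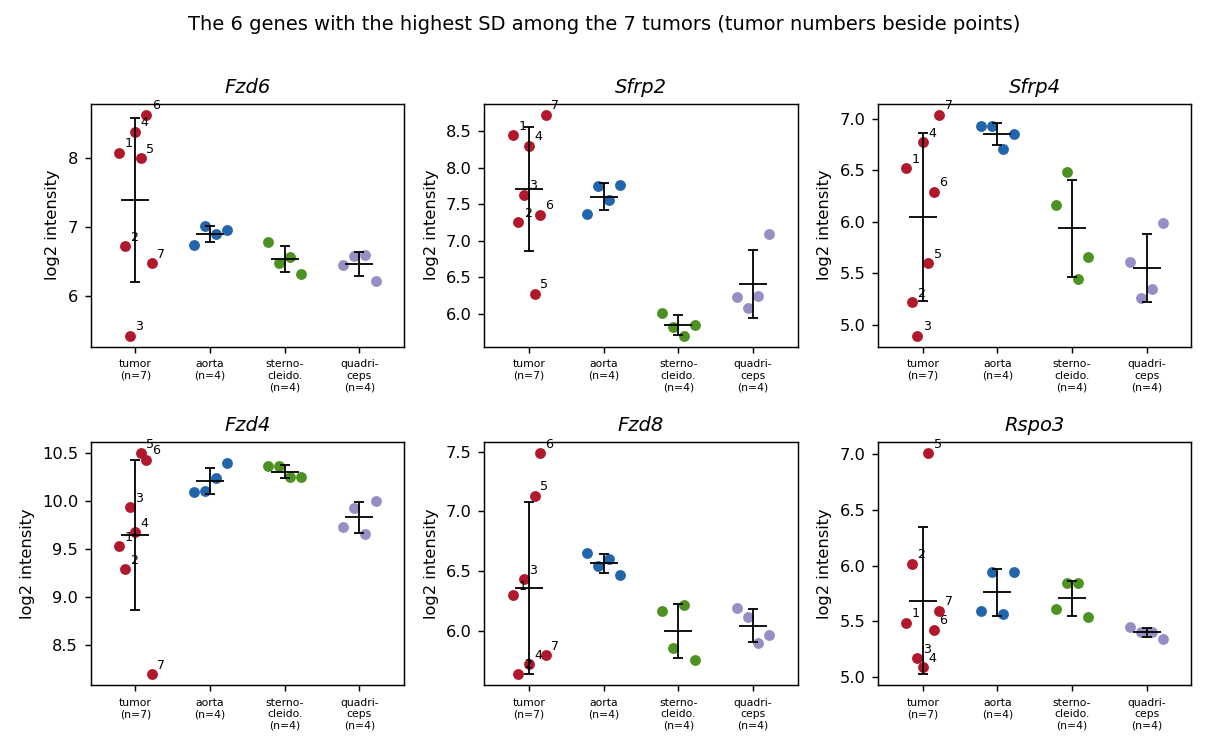
Log2 intensity in each array for the 6 of the 45 genes with the highest SD among tumors, with tumor numbers beside the points and the group mean and SD as bars (tumors n = 7, other groups n = 4 each). Fzd6 splits into tumors 1, 4, 5 and 6 at 8.0 to 8.63 and tumors 2, 3 and 7 at 5.42 to 6.72, and Rspo3 stands at 7.01 in tumor 5.

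The normal tissues differed from each other at about the rate of all genes. Between aorta and muscle, 8 of the 45 genes were higher in aorta and 8 lower, which is 17.8% in each direction, against 17% and 15.3% of all genes (32.3% in either direction). The fit shared 1 spread estimate over all 19 arrays, so the spread among tumors enters here too. With the compared groups only, 12 genes were higher and 9 lower in aorta, against 22.2% and 17.9% of all genes. This contrast shares its arrays with both tumor contrasts, so its values are given side by side and are no separate support. Sfrp2 (1.47), Dkk3 (1.26), Sfrp4 (1.11), Sfrp1 (0.91), Wnt2b (0.91), Fzd1 (0.87), Fzd2 (0.84) and Fzd3 (0.66) were higher in aorta. Wnt4 (-1.36), Fzd7 (-1.15), Dkk2 (-0.86), Frzb (-0.80), Fzd9 (-0.75), Sfrp5 (-0.56), Fzd10 (-0.40) and Wnt11 (-0.31) were lower in aorta. Adjusted p-values ran from 4.4e-06 for Wnt4 to 0.0361 for Wnt11. The Wnt11 call was lost against quadriceps alone (adjusted p = 0.239) and when any of 6 of the 19 arrays was left out. The Frzb call was lost against quadriceps alone, without aortas 1 and 3 and without aorta 4. The Fzd10 call was lost against sternocleidomastoid alone, without aortas 1 and 3 and without aorta 4, and the Dkk2 call against sternocleidomastoid alone. Housekeeping centring ended the Fzd3 call, and leaving out aortas 1 and 3 ended the Sfrp1 call.

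Sfrp4, a Frizzled-related inhibitor of bone and stroma, had 6.93, 6.93, 6.70 and 6.85 in aortas, against 6.17, 6.48, 5.44 and 5.66 in sternocleidomastoid and 5.60, 5.26, 5.34 and 5.99 in quadriceps. No muscle array reached an aorta value. Its call was lost against sternocleidomastoid alone and without aortas 1 and 3. Fzd1 had 7.56, 7.83, 7.82 and 7.53 in aortas, against 6.71, 6.73, 6.99 and 6.67 in sternocleidomastoid and 6.98, 6.79, 6.83 and 6.86 in quadriceps, again with no overlap. Aorta and muscle did not overlap for 8 genes higher in aorta (14.6% of all genes) and for 6 lower (12.6% of all genes).

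Between the muscles, 0 of the 45 genes passed in either direction in limma, against 0.234% of all genes higher and 0.198% lower in sternocleidomastoid. This fit also used the spread estimate shared with the tumors. With the compared groups only, 0 genes were higher and 1 lower in sternocleidomastoid, against 0.541% and 0.361% of all genes. In the main fit, 3 of the 45, or 6.67%, had an unadjusted p under 0.05, against 7.06% of all genes. The largest differences, sternocleidomastoid minus quadriceps, were -0.86 for Wif1 (adjusted p = 0.18) and -0.71 for Dkk2 (adjusted p = 0.386). Wif1 had 5.86, 5.44, 5.01 and 5.12 in sternocleidomastoid, against 7.01, 6.45, 5.99 and 5.43 in quadriceps, and Dkk2, a ligand of Lrp6, had 5.92, 6.25, 5.81 and 5.72 against 6.65, 6.61, 6.42 and 6.85. The muscles did not overlap for Dkk2, Sfrp2 and Rspo4, which were lower in sternocleidomastoid (6.67% of the 45, against 3.6% of all genes), and for Fzd4 and Rspo3, which were higher (4.44%, against 4% of all genes).

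Among the other genes of the pathway, receptors moved in both directions. The counts of each list below stand beside 18.6% of all genes called higher and 17.5% lower than in aorta, and 25.3% higher and 25.7% lower than in muscle. Some genes, such as Rnf43, are on more than 1 list, so the counts are not independent of each other. Of 15 co-receptors and alternative receptors, 6 were higher and 4 lower in tumor than in aorta, and 6 were higher and 3 lower than in muscle, of which 1 and 2 turned sign with housekeeping centring. Against aorta the largest were Lgr6, an R-spondin receptor (-2.99), Adgra2, which with Reck directs Wnt7 signals in brain endothelium (1.51), and Ptk7, a planar polarity receptor (1.38). Against muscle they were Musk, the muscle kinase of the neuromuscular junction (-2.84), Adgra2 (1.77) and Lgr4, another R-spondin receptor (-1.64). Adjusted p-values of these 6 differences were 4.5e-05 or lower. Lgr6 averaged 6.16 in tumors, 9.15 in aortas and 6.52 in muscles, so the aortas stood apart. Reck differed by -1.09 from aorta (adjusted p = 1.82e-05 in limma), opposite to Adgra2, and by -0.02 from muscle (adjusted p = 0.907).

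Of 7 secretion and ligand-handling genes, 0 were higher and 2 lower in tumor than in aorta (Gpc3, -1.48, and Porcn, the enzyme that attaches the Wnt lipid, -0.47), and 3 were higher and 0 lower than in muscle (Gpc6, 1.72, Trabd2b, 0.96, and Wls, the carrier of lipid-modified Wnt, 0.71, whose sign turned with housekeeping centring). Of the 2 turnover ligases, Znrf3 was lower in tumor than in aorta (-0.46) and muscle (-0.30), and Rnf43 passed in neither. Of 8 other inhibitors, 3 were higher and 1 lower than in aorta, and 3 were higher and 0 lower than in muscle, of which 1 and 2 turned sign with housekeeping centring. Sost, the inhibitor known from bone, had the largest decrease (-3.50 from aorta). It averaged 5.45 in tumors, 8.95 in aortas and 5.61 in muscles, and did not pass against muscle (-0.16, adjusted p = 0.449 in limma). Igfbp4, a growth factor binding protein, was higher than in both aorta and muscle (1.30 and 2.02). The median difference of the inhibitor list was 0.27 from aorta and 0.32 from muscle, against -0.02 and -0.04 for all genes. This list was not alone: medians were 0.26 and 0.40 for planar polarity genes and 0.53 and 0.03 for brain endothelial targets. They were 0.25 and 0.02 for destruction complex genes, -0.22 and 0.08 for co-receptors and -0.18 and -0.16 for the turnover ligases.

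Of 21 destruction complex and cytoplasmic genes, 10 were higher and 2 lower in tumor than in aorta, and 7 were higher and 5 lower than in muscle, of which 5 and 4 turned sign with housekeeping centring. Csnk1g1, a casein kinase, was higher by 1.11 and 1.26, and Tnks, a tankyrase that marks Axin for degradation, by 1.08 and 1.29. Csnk1e was higher than in aorta by 0.81, and Ctnnb1, which encodes beta-catenin, higher than in muscle by 1.13. Of 14 nuclear genes, 2 were higher and 2 lower than in aorta, and 6 were higher and 5 lower than in muscle, of which 0 and 4 turned sign with housekeeping centring. Pygo1, a co-activator, was lower than in aorta (-0.71) and muscle (-2.24), Lef1 was lower than in aorta (-0.70), and the co-repressor genes Tle4 (0.64 from aorta) and Tle3 (1.41 from muscle) were higher.

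Of 21 general beta-catenin target genes, 7 were higher and 3 lower in tumor in each contrast; 1 of the calls against aorta turned sign with housekeeping centring, and 6 genes were lower than muscle with median centring. Ccnd1, a cyclin of the G1 phase, was higher by 2.58 than in aorta and by 2.91 than in muscle, Ccn4 by 1.92 and 2.05, Myc by 2.04 than in aorta and Cd44 by 2.04 than in muscle. All 4 also respond to many other signals. The list's median difference was 0.10 from aorta and -0.02 from muscle, near the -0.02 and -0.04 of all genes. Of 11 genes known to respond to Wnt in brain endothelium, 4 were higher and 2 lower than in aorta, and 4 were higher and 1 lower than in muscle, 1 of which turned sign with housekeeping centring. Plvap, which Wnt signalling lowers there, was higher by 3.85 and 4.45, Cldn5, a tight junction gene that is also on the endothelial list, by 2.34 and 3.01, and Mfsd2a, a lipid transporter of the barrier, was lower than in aorta (-2.54). Endothelial markers were higher in tumors on 15 of 16 genes against aorta and 16 of 16 against muscle. Macrophage markers were higher on 8 of 8 genes in both contrasts, with median differences of 1.65 and 2.23, and their array means were 8.58 to 9.70 in tumors, against 7.15 to 7.43 in aortas, 6.73 to 6.97 in sternocleidomastoid and 6.44 to 7.44 in quadriceps. The part of both lists in these differences was not tested. Of 16 planar polarity genes, 5 were higher and 1 lower than in aorta, and 9 were higher and 2 lower than in muscle, of which 3 and 8 turned sign with housekeeping centring; the largest included Vangl1 (1.17 and 1.47) and Fuz (-0.77 and -1.07).

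**Figure D5:**
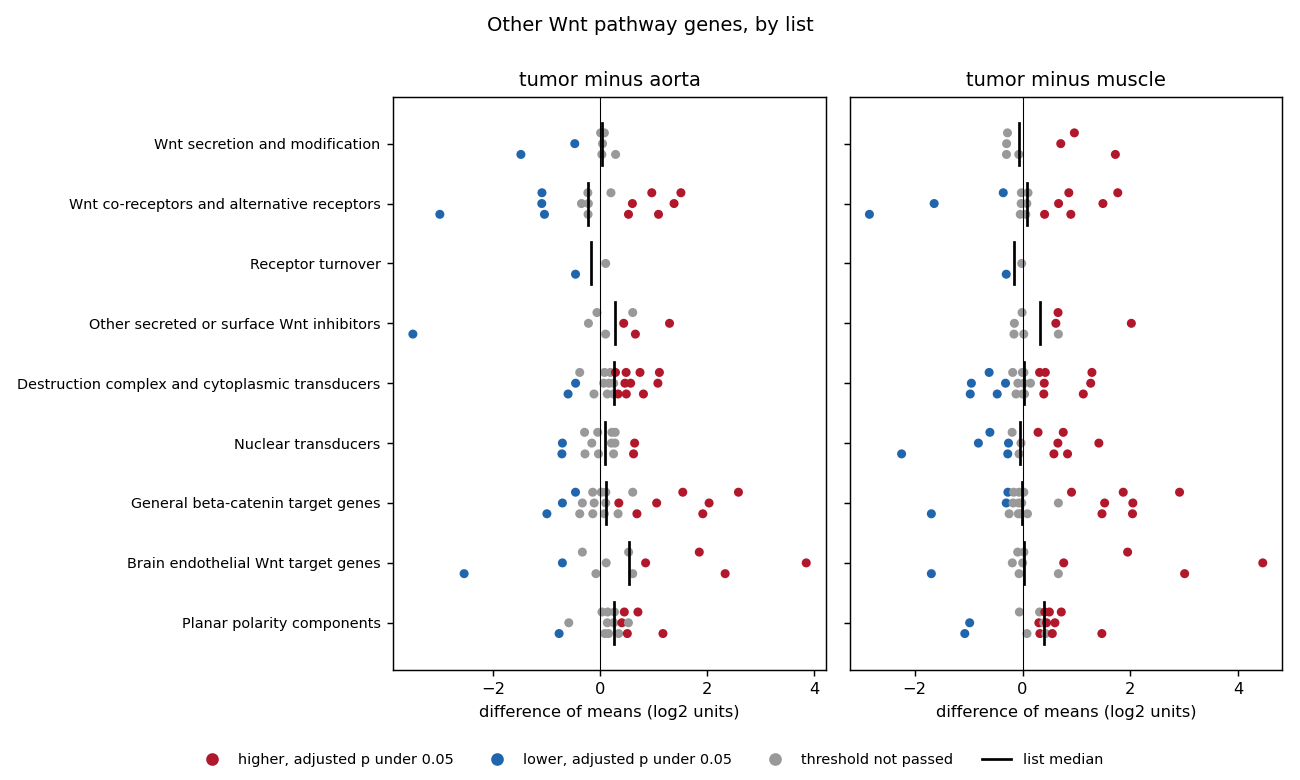
Genes of the other Wnt pathway lists, with the log2 difference of tumor from aorta and from muscle for each gene. Sost reaches -3.50 against aorta, and Plvap reaches 4.45 against muscle.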

How the data were processed

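The authors deposited 1 table of processed values for 19 arrays. They were read as log2 intensities, because the deposited values ran from 1.59 to 13.8 with array medians of 5.35 to 5.48. Partek 6.6 is named in the submitters' processing notes, while the normalization is not given in the sources used here. RNA was extracted with a Qiagen miRNeasy kit and labelled with biotin, per the labels' protocols.

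Of 41345 probe sets, 23521 carried 1 gene symbol, 1814 several and 16010 none in the platform's annotation. Per gene the single-symbol probe set with the highest mean was used, which left 22180 genes. Groups came from the labels. The 4 contrasts (tumor against aorta, tumor against both muscles averaged, aorta against those muscles, and sternocleidomastoid against quadriceps) were fitted over all arrays with limma 3.58.1 in R 4.3.3, with 1 mean per group, two-sided, with Benjamini-Hochberg adjustment over 22180 genes and a threshold of 0.05. The fit was tested on simulated data. The number of arrays limits the precision.

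Members and lists were chosen with earlier results of these data known. Array values are given for up to 8 members per contrast with the largest called difference and a group mean above the highest array median. They are also given for Axin2, Lgr5 and the Rspo genes. Of each pathway list, up to 3 of the largest called differences per contrast were named, and Reck was added beside Adgra2. Alternatives were other centrings and normalization, a filter on dim genes, probe set means, other variance models and thresholds, subsets of arrays, and leaving out each array in turn. Tables and figures were made with Python 3.11.15, pandas 2.3.3 and matplotlib 3.10.9.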

Additional observations from a re-analysis of the deposited data

Results flagged for a closer look

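In each of the 4 groups, the highest or lowest array of each of the 45 genes was set against the others with Dixon's 95% criterion. It marked 10 of 180 groups, and chance marks about 1 in 20. In tumors, Wnt10a was low in tumor 2 (5.48), Fzd1 was low in tumor 3 (6.55) and Fzd5 was high in tumor 2 (6.90). In aortas, Wnt7b (5.06) and Rspo4 (5.36) were low in aorta 4, and Sfrp5 was high in aorta 3 (6.14). Rspo4 had an identical value (5.47) in each other aorta, so any different value in aorta 4 would have been marked. In sternocleidomastoid, Wnt7a was high in array 1 (5.78) and Dkk3 in array 3 (7.01). In quadriceps, Wnt9b was high in array 3 (6.36) and Sfrp2 in array 4 (7.10).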

How the results depend on the processing

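Centring on the 9 measured housekeeping genes, of which 5 were called higher in tumor than in aorta and 6 higher than in muscle, moved the median of all genes by -0.57 for tumor minus aorta, -0.81 for tumor minus muscle and -0.24 for aorta minus muscle, and set 75.6% and 81.6% of all genes lower in the tumor contrasts. Counts of the 45 genes were then 0 higher and 39 lower against aorta, 1 higher and 38 lower against muscle, and 16 lower in aorta than in muscle. This setting turned 20 signs of genes called with or without it, of which 1 against aorta and 5 against muscle were called as deposited. Against aorta they were Wnt4 (-0.52), Wnt7b (-0.55), Wnt8b (-0.56), Fzd5 (-0.45), Fzd9 (-0.57), Fzd10 (-0.37), Rspo2 (-0.48) and Lgr5 (-0.073). Against muscle they were Wnt2 (-0.51), Wnt5a (-0.54), Wnt16 (-0.60), Fzd1 (-0.20), Fzd2 (-0.49), Fzd3 (-0.39), Fzd5 (-0.58), Dkk3 (-0.53), Sfrp1 (-0.20), Rspo2 (-0.77), Rspo3 (-0.68) and Lgr5 (-0.26). Signs called in neither setting turned too: against aorta for Wnt2 (-0.19), Wnt9a (-0.34), Fzd6 (-0.083), Dkk2 (-0.11) and Sfrp2 (-0.46), against muscle for Fzd8 (-0.48) and Sfrp4 (-0.51), and for 11 genes between aorta and muscle and 2 between the muscles. Relative to the shifted median, Lgr5 stood at 0.52 and 0.59, and Fzd1, Sfrp1, Fzd3 and Wnt2 at 0.65, 0.65, 0.46 and 0.34.

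Against aorta, 1 gene was higher and 4 lower as deposited. The higher count was 2 with median centring, with 1 variance per group and without aortas 1 and 3, 3 both when tumors 4 and 5 were left out and when tumors 1 to 4 stood alone, and 0 at an adjusted p under 0.01 or with at least a 2-fold difference. The lower count was 8 with dim genes left out, 10 with tumors 1 to 4 alone, 2 at 0.01 and 0 at 2-fold. Against muscle, 7 were higher and 12 lower; the higher count was 4 at 0.01 and against either muscle alone, and 1 at 2-fold, and the lower count was 3 at 2-fold. Aorta minus muscle had 5 lower at 0.01, and 3 higher and 2 lower at 2-fold. With the compared groups only, 1 gene was lower in sternocleidomastoid than in quadriceps. The cause was not tested, except that stricter thresholds and smaller subsets test less. Leaving out each array gave 0 to 3 higher and 3 to 6 lower against aorta, 4 to 8 and 9 to 12 against muscle, 8 to 9 and 5 to 10 for aorta minus muscle, and 0 to 0 and 0 to 1 between muscles. The count against aorta reached 0 without aorta 4, 2 without aorta 1, aorta 3, tumor 3 or tumor 5, and 3 without tumor 6; against muscle it was 4 without quadriceps 4 or sternocleidomastoid 3; aorta minus muscle had 5 lower without aorta 4; and 1 gene was lower between muscles without quadriceps 4. Calls held in every setting and array left out for Wnt4, Fzd7, Frzb and Sfrp2 against muscle, and for Wnt4, Fzd7, Dkk3 and Sfrp2 between aorta and muscle. Between tumor and muscle, the calls of Wnt5b, Wnt11, Fzd9 and Sfrp5 were lost only at the 2-fold minimum. The scaling of the other pathway lists was chosen after seeing the data. No paired analysis was possible because the labels give no replicate numbers shared by the groups.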
